A study of Rattus norvegicus with 6 samples.

Results

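The vascular endothelial growth factor (VEGF) and angiopoietin system was followed in 2 cell fractions of the rat renal inner medulla. It was represented by 10 genes, chosen by name: the ligands Vegfa, Vegfb, Vegfc, Pgf and Angpt2 and the receptors Kdr, Flt1, Flt4, Tek and Tie1. Every probe set annotated with 1 of these symbols and no other was taken, which gave 15 probe sets of the 31042 tested, or 10 of 14217 genes. The 5 ligands had 7 probe sets and the 5 receptors 8.

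Each of 6 Affymetrix Rat 230 2.0 arrays measured RNA from 1 preparation. Both fractions came from male Sprague-Dawley rats given 1 mg of furosemide, a loop diuretic, intraperitoneally 30 min before death, whose excised inner medulla was treated for 75 min with collagenase B plus hyaluronidase at 37 °C. The IMCD fraction (3 arrays) was enriched in inner medullary collecting duct cells by low-speed centrifugation, and the nonIMCD fraction (3 arrays) was collected from the supernatant that this step left. By the age label IMCD replicate 1 came from rats of 6 weeks, the remaining 5 preparations from rats of 10 weeks. The study used 7 rats in all and describes 3 pairs of an IMCD and a nonIMCD preparation. The labels do not say that arrays with the same number form a pair, and the age labels of the arrays numbered 1 differ, so the fit did not pair them. Which rats went into which preparation was not used here, and p-values measure the spread between preparations.

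VEGF ligands are secreted and act on tyrosine kinase receptors that are found mainly on endothelial cells, where they drive growth, survival and permeability of vessels. Angiopoietins act on a second pair of endothelial receptors, Tek and Tie1, that hold the vessel wall in a quiescent or a remodelling state. In the kidney, epithelial cells of the tubule and podocytes are known sources of Vegfa, and the receptors lie on glomerular and peritubular capillaries and on the vasa recta, the vessels that run beside the loops and ducts of the medulla.

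All receptors and all ligands past the threshold were lower in the IMCD fraction, and 1 receptor and 2 ligands did not pass it. Taking the brightest probe set of each gene, 4 of 5 receptors (Kdr, Flt1, Tek and Tie1) and 3 of 5 ligands (Vegfc, Pgf and Angpt2) fell in IMCD, 0 of 10 genes rose, and Vegfa, Vegfb and Flt4 did not pass the threshold (limma, adjusted p under 0.05 over all probe sets). Among all 14217 genes, 15.7% were called lower and 10% higher. The median log2 difference, IMCD minus nonIMCD, was -1.88 over the receptors and -1.12 over the ligands, against -0.09 over all genes. The arrays of the fractions did not overlap, with IMCD below nonIMCD, for 5 of 5 receptors and 3 of 5 ligands, and the same held for 28.7% of all genes. Counted as probe sets, 10 of the 15 were lower and 0 higher, against 13.4% and 8.58% of all probe sets.

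The 2 fractions were checked against marker genes. Of 10 collecting duct principal cell markers 9 were higher in IMCD. The other, Aqp2, had means of 52574 in IMCD and 43299 in nonIMCD and did not pass (0.29, adjusted p = 0.261). Of 14 measured endothelial markers that are not among the 10 genes, 13 were lower, with a median log2 difference of -2.07. Their summed intensity ranged from 15814 to 20119 in IMCD and from 82648 to 89340 in nonIMCD, and 0 of the 14 lay under the highest negative control value on all IMCD arrays, so endothelial transcripts were measured in both fractions. The median intensity of all probe sets was 269.0 to 272.1 in IMCD and 329.0 to 340.0 in nonIMCD. The 3' to 5' intensity ratio of Actb, a sign of RNA integrity, was 1.76 to 1.90 in IMCD and 2.46 to 3.37 in nonIMCD. That of Gapdh was 1.04 to 1.06 in IMCD and 1.2 to 1.41 in nonIMCD. For hexokinase the ratio was 2.09 to 2.24 in IMCD and 3.8 to 5.03 in nonIMCD. The part of RNA integrity in the differences reported here was not tested. In such bulk samples fewer cells of a type and less RNA per cell cannot be told apart.

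**Figure D1:**
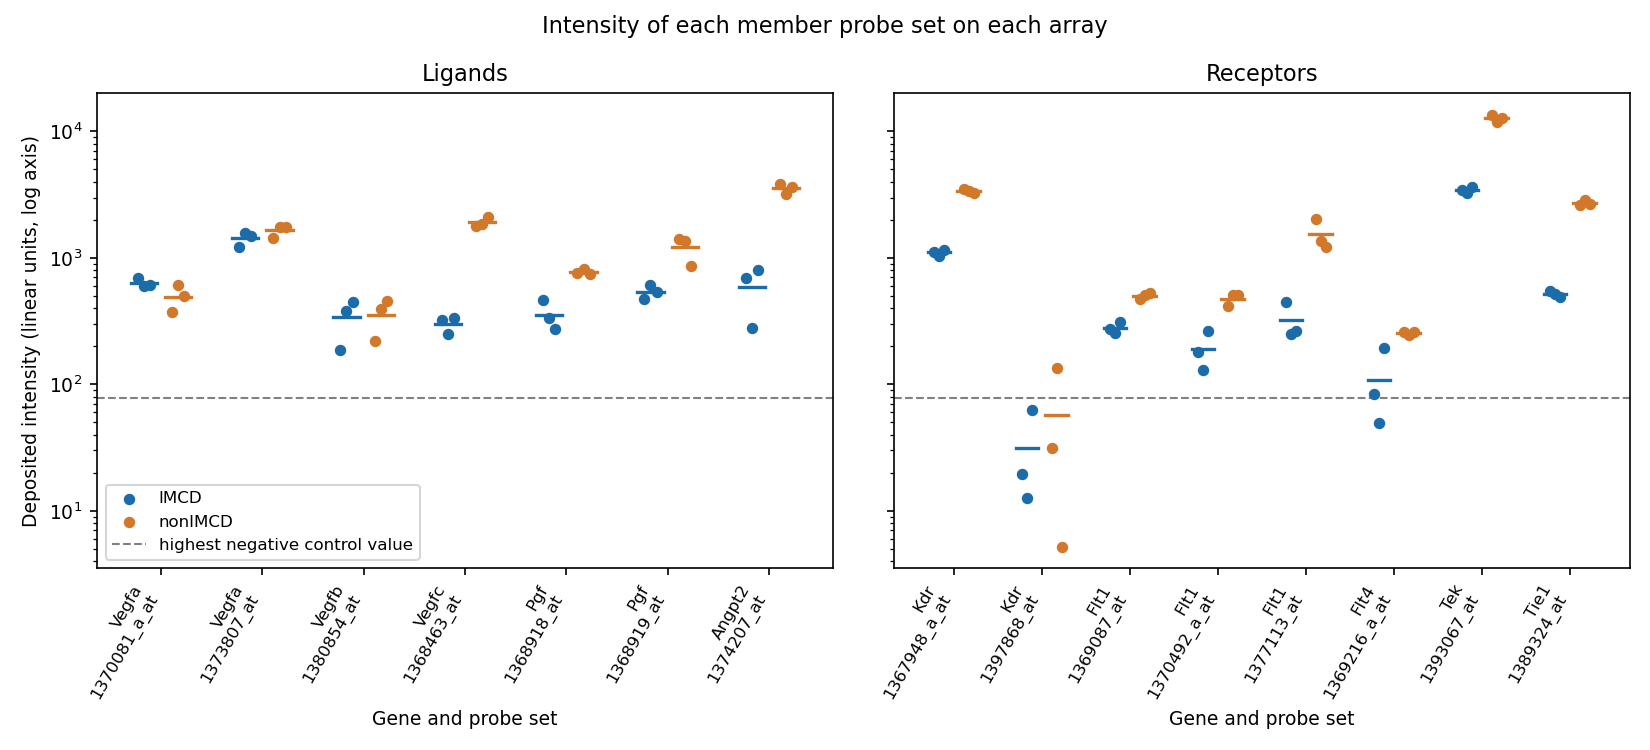
Deposited intensity (log axis) of the 15 probe sets of the ligands (left panel) and receptors (right panel) on each array, with IMCD in blue and nonIMCD in orange; points are arrays, bars are means of 3 arrays, and the dashed line is the highest negative control value, 78.4. Tek, Tie1 and the brighter Kdr probe set show 2 tight, separate groups of points, whereas the points of Vegfa and Vegfb overlap.

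Kdr (VEGF receptor 2) is the main signalling receptor for Vegfa on endothelial cells. Its brighter probe set, 1367948_a_at, had intensities of 1123, 1040 and 1165 in IMCD, against 3474, 3405 and 3256 in nonIMCD. The fractions were separated by far more than the spread within either, and the mean was 3.05 times as high in nonIMCD. The log2 difference was -1.59 ± 0.12 (SE, adjusted p = 0.000774). A second Kdr probe set, 1397868_at, read 19.4, 12.7 and 62.3 in IMCD and 31.6, 135.3 and 5.21 in nonIMCD. Only 1 of these 6 values exceeded the highest negative control, and the probe set gave no usable comparison (log2 difference -0.32 ± 0.78, SE, adjusted p = 0.814). When the probe sets of a gene were averaged, this dim one brought the Kdr difference to -0.95 (adjusted p = 0.139).

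Flt1 (VEGF receptor 1) binds Vegfa, Vegfb and Pgf, and is also made as a soluble form that traps ligand. It had 3 probe sets, all lower in IMCD, but by different amounts. The brightest, 1377113_at, had 451.9, 248.0 and 264.2 in IMCD and 2018, 1369 and 1217 in nonIMCD, a log2 difference of -2.22 ± 0.30 (SE, adjusted p = 0.00517). Probe set 1369087_at had 274.9, 256.1 and 308.8 in IMCD and 470.6, 505.3 and 532.1 in nonIMCD, a difference of -0.81 ± 0.13 (SE, adjusted p = 0.00957). Probe set 1370492_a_at had 180.5, 129.4 and 262.3 in IMCD and 414.8, 507.1 and 505.7 in nonIMCD, a difference of -1.30 ± 0.26 (SE, adjusted p = 0.0195). The fractions did not overlap for any of the 3, and the 95% intervals of the first (-2.96 to -1.47) and second (-1.14 to -0.49) were separate. Which Flt1 transcripts each probe set reads was not analysed here. Leaving out IMCD replicate 1, nonIMCD replicate 2 or nonIMCD replicate 3 ended the call of 1370492_a_at, at adjusted p = 0.0648, 0.0662 and 0.0588.

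Flt4 (VEGF receptor 3), the receptor for Vegfc, is known from lymphatic endothelium and from fenestrated capillaries. Its single probe set was dim, with 83.4, 49.8 and 194.2 in IMCD and 259.7, 244.8 and 260.5 in nonIMCD. Every IMCD value lay under every nonIMCD value, but IMCD replicate 2 was below the highest negative control and the IMCD spread was wide. The difference of -1.28 ± 0.42 (SE) missed the threshold (adjusted p = 0.0833), with a 95% interval of -2.32 to -0.25. It passed without IMCD replicate 3 (-1.74, adjusted p = 0.011), with a pseudocount of 64 (-0.97, adjusted p = 0.0481), with dim probe sets left out (adjusted p = 0.0361) and with an intensity trend (adjusted p = 0.0432).

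Tek (Tie2), the angiopoietin receptor, had 3429, 3249 and 3639 in IMCD, against 13469, 11875 and 12684 in nonIMCD. The arrays within a fraction lay close together and the mean was 3.69 times as high in nonIMCD (log2 difference -1.88 ± 0.12, SE, adjusted p = 0.00054). Tie1, a related receptor that binds no angiopoietin strongly by itself and modulates Tek, had 550.4, 522.0 and 488.2 in IMCD, against 2635, 2888 and 2677 in nonIMCD. Its difference of -2.36 ± 0.12 (SE, adjusted p = 0.000333) went with a mean 5.25 times as high in nonIMCD. The 95% intervals of Tie1 (-2.66 to -2.06) and Kdr (-1.88 to -1.30) did not overlap, while that of Tek (-2.18 to -1.57) overlapped both and that of the brightest Flt1 probe set contained the Tie1 interval.

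**Figure D2:**
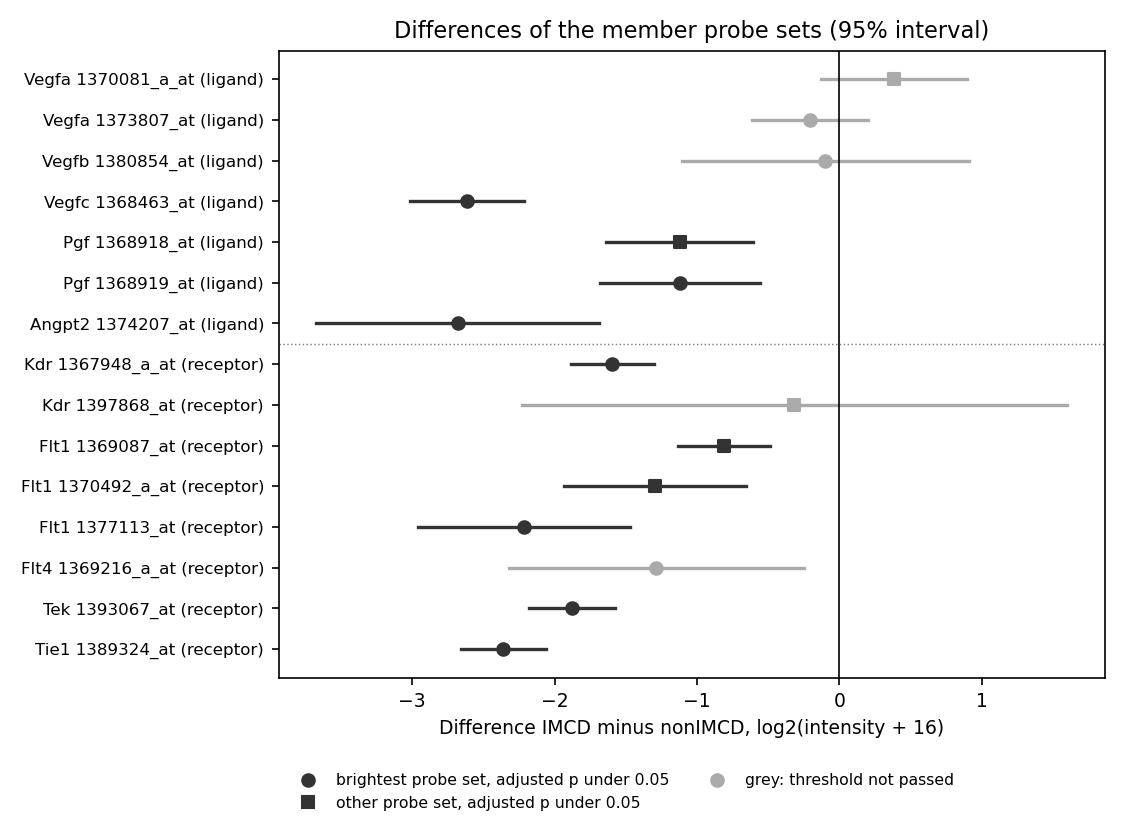
Log2 difference, IMCD minus nonIMCD, of each probe set with its 95% interval from the limma fit over 6 arrays; circles mark the brightest probe set of a gene, squares the others, and grey marks those that did not pass the threshold. Both Vegfa probe sets, Vegfb and the dim Kdr probe set 1397868_at have intervals that include 0, and the intervals of the other 11 probe sets lie to the left of 0.

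Vegfa, the main ligand of Kdr and a target of hypoxia-inducible factors, was measured in both fractions at similar intensities. Probe set 1373807_at had 1212, 1587 and 1486 in IMCD and 1434, 1751 and 1762 in nonIMCD. The ranges overlapped, and the difference of -0.21 ± 0.17 (SE) did not pass (adjusted p = 0.429). Probe set 1370081_a_at had 695.9, 599.0 and 614.8 in IMCD and 370.3, 615.5 and 495.2 in nonIMCD, with a difference of opposite sign that did not pass either (0.38 ± 0.21, SE, adjusted p = 0.254). The 95% intervals were -0.61 to 0.20 and -0.13 to 0.90, so a fall in IMCD of the size seen for Kdr lay outside both. Each interval held smaller differences in either direction, and the range common to both was -0.13 to 0.20. With each array centred on its median the sign of the brighter probe set turned (0.08, adjusted p = 0.754), and the other probe set was at 0.67 (adjusted p = 0.0623). Probe set 1370081_a_at was at 0.60 after quantile normalization and at 0.20 without nonIMCD replicate 1.

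Vegfb, a ligand of Flt1 alone among the kinase receptors, had 186.2, 382.7 and 448.2 in IMCD and 221.0, 394.5 and 454.0 in nonIMCD. The fractions covered nearly the same range, and the array numbered 1 was the lowest in each. The difference was -0.10 ± 0.41 (SE, adjusted p = 0.895), with an interval of -1.10 to 0.91 that leaves changes of up to about 2-fold undetected. Its sign turned under median centring (0.19), quantile normalization (0.18), and without IMCD replicate 1 (0.27), nonIMCD replicate 2 (0.003) or nonIMCD replicate 3 (0.10).

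Vegfc, the ligand of Flt4 and a growth factor of lymphatic vessels, was clearly lower in IMCD. It had 324.6, 248.6 and 332.1 in IMCD and 1791, 1864 and 2121 in nonIMCD. The mean was 6.38 times as high in nonIMCD and the log2 difference was -2.62 ± 0.16 (SE, adjusted p = 0.000494). Of all genes, 2.67% had a lower difference.

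Pgf, placental growth factor, a ligand of Flt1, was lower in IMCD in both of its probe sets. Probe set 1368919_at had 476.9, 607.3 and 537.1 in IMCD and 1418, 1359 and 866.7 in nonIMCD, a difference of -1.12 ± 0.23 (SE, adjusted p = 0.0207). Probe set 1368918_at had 463.2, 335.4 and 271.5 in IMCD and 764.9, 820.6 and 746.4 in nonIMCD, with the same difference (-1.12 ± 0.21, SE, adjusted p = 0.0156). The groups did not overlap in either, and the mean was 2.25 and 2.18 times as high in nonIMCD. The call of the brighter probe set was nevertheless the least stable among the 7 genes called. It ended when IMCD replicate 1 (-1.03, adjusted p = 0.0718), IMCD replicate 3 (-1.12, adjusted p = 0.0627), nonIMCD replicate 1 (-0.99, adjusted p = 0.0672) or nonIMCD replicate 2 (-1.02, adjusted p = 0.0683) was left out. It also ended with each array centred on its median (-0.83, adjusted p = 0.0504). For the dimmer probe set, the call ended when IMCD replicate 2 (adjusted p = 0.0533), nonIMCD replicate 1 (adjusted p = 0.0531) or nonIMCD replicate 2 (adjusted p = 0.0553) was left out.

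Angpt2, an angiopoietin that endothelial cells store and release and that can oppose Angpt1 at Tek, had 699.0, 277.6 and 800.6 in IMCD and 3873, 3181 and 3619 in nonIMCD. All IMCD values were far under the nonIMCD values, although IMCD replicate 2 was well below the other IMCD arrays. The difference of -2.68 ± 0.40 (SE, adjusted p = 0.00738) had an interval (-3.68 to -1.69) that contained that of Vegfc (-3.02 to -2.22). Without IMCD replicate 2 the difference was -2.22, smaller in size than those of Vegfc (-2.49) and Tie1 (-2.36) in the same fit. Angpt1, the agonist of Tek and not among the 10 genes, had 103.5, 115.9 and 113.9 in IMCD and 82.5, 41.3 and 64.7 in nonIMCD. These values lay near the highest negative control, and the difference of 0.72 did not pass (adjusted p = 0.069).

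**Figure D3:**
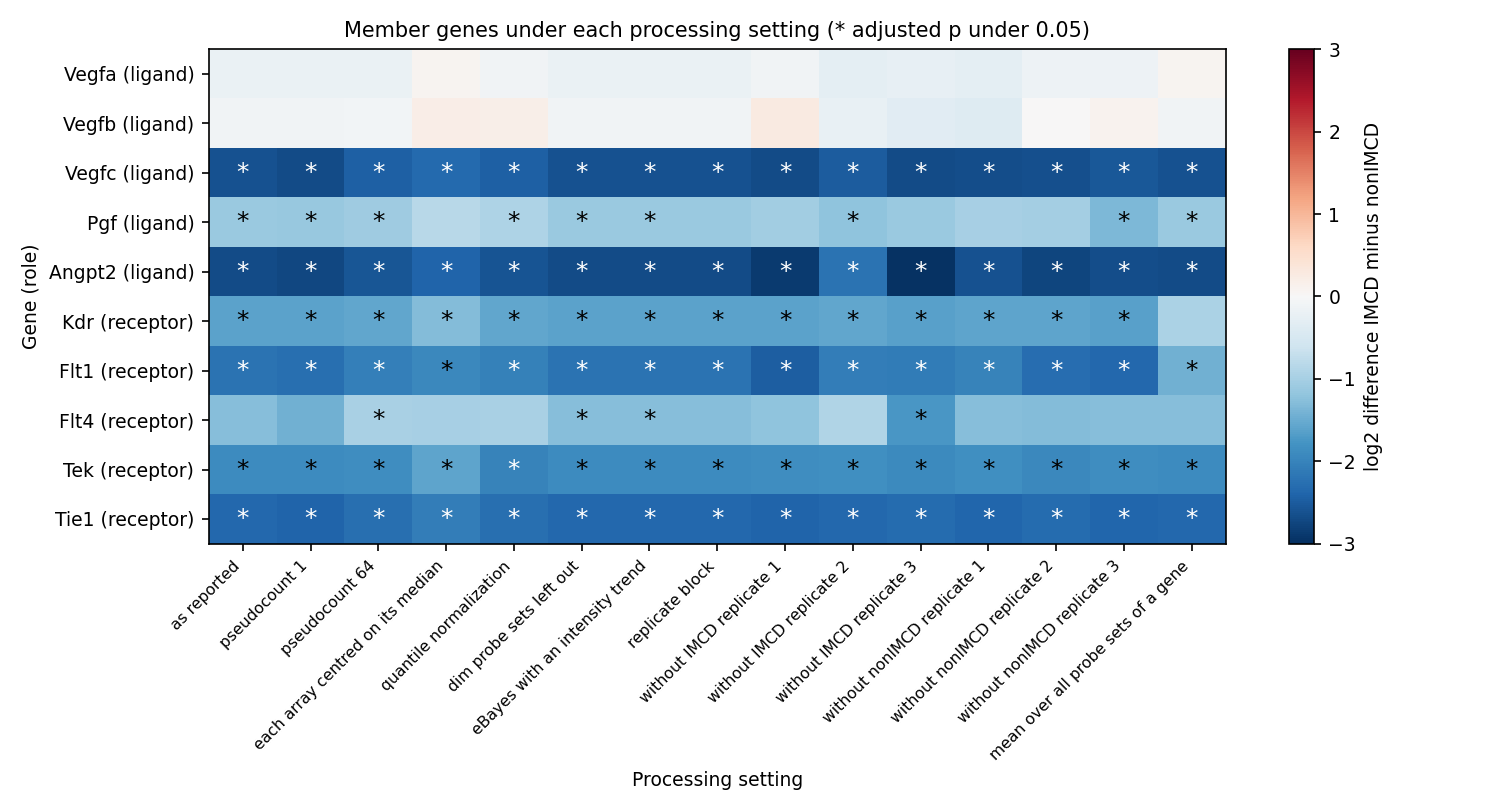
Colour gives the log2 difference, IMCD minus nonIMCD, of each of the 10 genes (brightest probe set, rows) as reported and under 14 other processing settings (columns); an asterisk marks an adjusted p under 0.05. Vegfc, Angpt2, Flt1, Tek and Tie1 carry an asterisk in every column, Pgf loses it in 6, Kdr loses it in 1 and Flt4 gains it in 4.

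Ligands were then set against the receptors they are known to bind. For each of 7 pairs, the log2 difference of the ligand minus that of the receptor was computed over arrays from the brightest probe sets. With 3 arrays against 3 an exact two-sided permutation test cannot go below p = 0.1, and all 7 pairs reached that value (0.1 after Benjamini-Hochberg adjustment over the 7), so none could pass the threshold. The Vegfa difference lay above that of Kdr by 1.39 ± 0.19 (SE) and above that of Flt1 by 2.01 ± 0.49 (SE). The Vegfb and Pgf differences also lay above that of Flt1, by 2.12 ± 0.81 and 1.10 ± 0.39 (SE). The gaps to Flt1 depended on its probe set, as was examined after seeing the data. With 1369087_at in place of the brightest one they were 0.60 for Vegfa, 0.71 for Vegfb and -0.31 for Pgf, and with 1370492_a_at they were 1.09, 1.20 and 0.18, so no direction is given for Pgf against Flt1. Vegfc and Angpt2 stood on the other side. The Vegfc difference lay below those of Flt4 (-1.33 ± 0.40, SE) and Kdr (-1.02 ± 0.13, SE), and that of Angpt2 below that of Tek (-0.80 ± 0.42, SE). Without IMCD replicate 2, the array on which Angpt2 was lowest, the last gap was -0.38. Flt4 was under the highest negative control on 1 of 3 IMCD arrays, so its IMCD level, and with it the gap to Vegfc, is poorly measured. With the brightest probe sets, IMCD and nonIMCD values formed separate ranges in each of the 7 pairs, as the permutation p of 0.1 implies. Several pairs share a gene, so they are not separate results, and the share over other gene pairs was not computed.

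The co-receptors and partners of the system were read from a list of 12 genes, with 6 genes lower, 1 higher and 5 not past the threshold. Over all genes, 15.7% were lower and 10% higher. The median log2 difference of the list was -0.48. The endothelial phosphatase Ptprb, which acts on Tek, had 2186, 1956 and 2349 in IMCD and 13841, 11920 and 14339 in nonIMCD (-2.62 ± 0.14, SE, adjusted p = 0.000377). The semaphorin receptor Plxnd1 fell to the same degree (-2.62 ± 0.15, SE, adjusted p = 0.000397), and the integrin subunit Itgb3 was also lower (-2.88, adjusted p = 0.00239). The neuropilins, which bind VEGF ligands beside the kinase receptors, were both lower, Nrp2 with -1.72 and Nrp1 with -0.64 (adjusted p = 0.00395 and 0.0123). The intensity of Nrp1 was 3579 ± 123 in IMCD and 5570 ± 44.1 in nonIMCD (SD, n = 3 arrays each). The integrin subunit Itgav was higher (0.75, adjusted p = 0.0157).

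Receptor signalling was read from 23 measured genes, 9 of them lower, 2 higher and 12 not past the threshold. Their median of -0.15 was close to that of all genes, but the 9 of 23 called lower stand against 15.7% of all genes. The 2 called higher stand against 10%. Sh2d2a, an adaptor that binds Kdr and is also known from T cells, had values under the highest negative control on all 3 IMCD arrays, and 595.7, 282.1 and 568.5 in nonIMCD (adjusted p = 0.00113). Nos3, endothelial nitric oxide synthase, had 127.9, 147.9 and 125.9 in IMCD and 917.9, 930.0 and 1032 in nonIMCD (-2.70 ± 0.13, SE, adjusted p = 0.000278). Signalling proteins that many cell types express were found among the lower members, such as Plcg1 (-0.91, adjusted p = 0.0187) and Pxn (-0.77, adjusted p = 0.0175), and among those that did not pass, such as Akt1 (-0.07, adjusted p = 0.756) and Ptk2 (-0.15, adjusted p = 0.447). The higher members were the adaptor Grb14 (1.33, adjusted p = 0.0114) and Cav1, the main protein of caveolae (0.78, adjusted p = 0.0248). Leukocyte markers were all lower in IMCD (8 of 8, median -5.68), and their summed intensity was 785 to 1112 in IMCD and 50191 to 56855 in nonIMCD.

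Of 8 measured transcripts known to be induced by VEGF in endothelial cells, 4 were lower, 2 were higher and 2 did not pass. The shares over all genes were 15.7% lower and 10% higher. Esm1, an endothelial proteoglycan, had 742.1, 846.1 and 689.0 in IMCD and 8617, 9089 and 9422 in nonIMCD (-3.55 ± 0.13, SE, adjusted p = 0.000204). The transcription factor Hlx differed by -3.78 ± 0.25 (SE, adjusted p = 0.000538), with 1 of 3 IMCD arrays above the highest negative control. The higher members were Rcan1 (1.31, adjusted p = 0.00218) and Angptl4 (0.99, adjusted p = 0.0122), which many cell types express.

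Of 8 measured genes of the oxygen sensing pathway that acts on Vegfa, 1 was lower, 1 was higher and 6 did not pass. These counts are near the shares over all genes, 15.7% lower and 10% higher. Epas1, the hypoxia-inducible factor 2 alpha subunit that is prominent in endothelium, had 1648, 1323 and 1449 in IMCD and 8894, 7954 and 7439 in nonIMCD (-2.45 ± 0.15, SE, adjusted p = 0.000447). Hif1a averaged 17435 ± 493 in IMCD against 14592 ± 1334 in nonIMCD (SD, n = 3 arrays each) and did not pass (0.26, adjusted p = 0.207). The prolyl hydroxylase Egln3, itself induced by hypoxia, was higher in IMCD (1.12 ± 0.19, SE, adjusted p = 0.0107). Other hypoxia-inducible transcripts, 12 in number, included 4 higher, 1 lower and 7 not past the threshold (median 0.37), beside 10% higher and 15.7% lower over all genes. Adm, the vasodilator adrenomedullin, had 15064, 13615 and 14582 in IMCD and 1893, 2106 and 2238 in nonIMCD (2.79 ± 0.13, SE, adjusted p = 0.000264), and the hexokinase Hk2 differed by 1.93 (adjusted p = 0.0218).

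**Figure D4:**
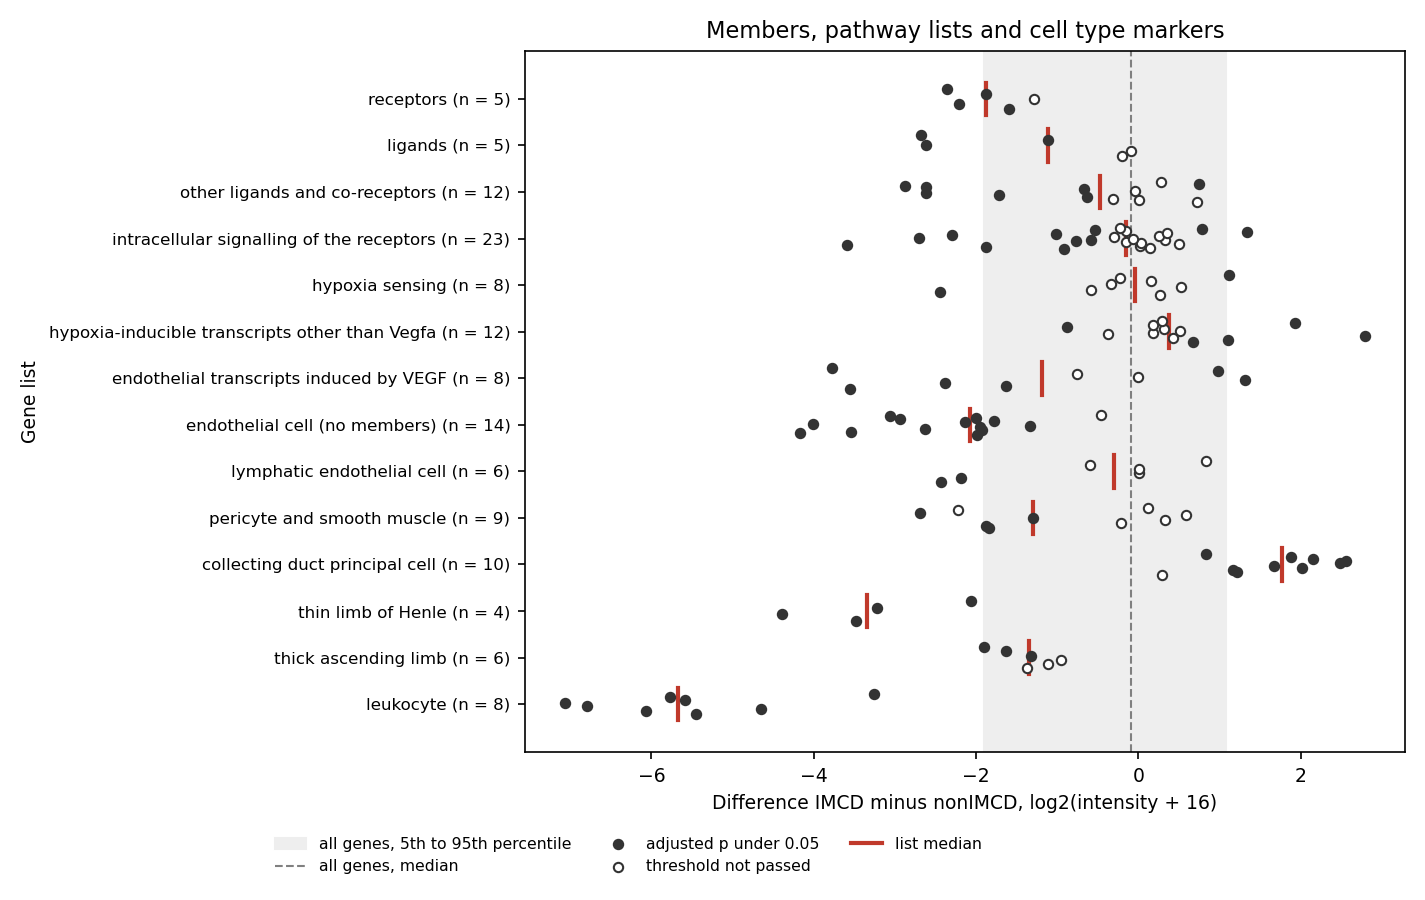
Log2 difference, IMCD minus nonIMCD, of single genes (points) in the receptor and ligand groups, 5 lists of the pathway and 7 lists of cell type markers; filled points passed the threshold, red bars are list medians, and the grey band holds the 5th to 95th percentile of all genes (-1.91 to 1.07). The receptor median (-1.88) lies near that of the endothelial markers (-2.07), and ligands are spread over both sides of the band's left edge.

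The marker lists of the vessels and their neighbours differed in how many members were lower, a call made for 15.7% of all genes. The endothelial gene with the largest difference, von Willebrand factor (Vwf), had 99.5, 171.5 and 203.2 in IMCD and 2658, 3134 and 3231 in nonIMCD (-4.16 ± 0.26, SE, adjusted p = 0.000526). Slc14a1, the urea transporter of descending vasa recta, differed by -4.01 (adjusted p = 0.000399). These differences were larger than that of any of the 10 genes, whereas those of Pecam1 (-1.99), Emcn (-1.92) and Eng (-1.95) lay within the range of the receptors. Of 6 lymphatic markers 2 were lower, Lyve1 (-2.43, adjusted p = 0.0016) and Prox1 (-2.19, adjusted p = 0.00302). The other 4 did not pass (Mmrn1 at 0.83, Pdpn at 0.01, Ccl21 at 0.004 and Reln at -0.60). The median was -0.30, and Ccl21 lay under the highest negative control on all 6 arrays. The summed intensity of the lymphatic list was 2161 to 3179 in IMCD and 9557 to 12497 in nonIMCD. Most of the nonIMCD sum was Lyve1 and Prox1, with means of 6921 and 3066, so it says little of the other 4 genes. Of 9 pericyte and smooth muscle markers 4 were lower, among them Abcc9 (-2.69, adjusted p = 0.000923) and Rgs5 (-1.87, adjusted p = 0.00273). The other 5 did not pass: Notch3 at 0.59, Acta2 at 0.33, Myh11 at 0.115, Cspg4 at -0.22 and Kcnj8 at -2.23 (adjusted p = 0.0565). The summed intensity of this list was 2482 to 3016 in IMCD and 4437 to 4481 in nonIMCD. Tubule markers other than those of the collecting duct were also lower or did not pass, with 4 of 4 thin limb markers and 3 of 6 thick ascending limb markers lower and 0 higher. Their summed intensity was 6652 to 9430 in IMCD and 70186 to 89756 in nonIMCD for the thin limb list, and 1900 to 6315 in IMCD and 7139 to 10700 in nonIMCD for the thick ascending limb list. Most of the thin limb sum was Aqp1, with means of 5698 in IMCD and 63194 in nonIMCD. Collecting duct markers summed to 228405 to 245211 in IMCD and 109500 to 142679 in nonIMCD, so their transcripts were measured in both fractions. The part of each cell type in the differences of the ligands and receptors was not tested.

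The 3 genes whose log2 values correlated best with Kdr over the 6 arrays were Ctsz (Pearson r = 0.9999), Kcnn4 (0.9997) and Macir (0.9995). In all, 1460 of 14216 genes had an r above 0.95 with Kdr, and the points share the 2 fractions. The mean of Kcnn4 in IMCD, 4.78, was under the highest negative control, against 296.6 in nonIMCD. With Vegfa the highest were Efna4 (0.99), Kash5 (0.985) and Zfp382 (0.983), and 33 genes exceeded 0.95. Zfp382 was under the highest negative control, with means of 8.57 in IMCD and 10.3 in nonIMCD.

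Promoters are shown for 2 receptors that were lower in IMCD and for Vegfa (the first of its 2 entries), which did not pass, as the 250 bases before the start of each gene in the RefSeq annotation of GRCr8. A promoter entry was matched for 8 of the 10 genes, with 9 entries in all. Capitals mark matches on either strand. The letters searched were GGGCGG for Sp1, ACGTG and its variant form GCGTG for the core of the hypoxia response element, CCGGAA and, as another form, CAGGAA for ETS factors, and AGATAA for GATA factors, and matches do not overlap in these 3 sequences.
Kdr, chr14:32571813-32572062, plus strand: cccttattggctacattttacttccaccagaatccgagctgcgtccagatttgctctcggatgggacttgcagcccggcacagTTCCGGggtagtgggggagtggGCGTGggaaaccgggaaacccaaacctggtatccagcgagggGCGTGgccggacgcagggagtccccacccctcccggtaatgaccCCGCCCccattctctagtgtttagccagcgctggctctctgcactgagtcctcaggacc
Tie1, chr5:137304982-137305231, minus strand: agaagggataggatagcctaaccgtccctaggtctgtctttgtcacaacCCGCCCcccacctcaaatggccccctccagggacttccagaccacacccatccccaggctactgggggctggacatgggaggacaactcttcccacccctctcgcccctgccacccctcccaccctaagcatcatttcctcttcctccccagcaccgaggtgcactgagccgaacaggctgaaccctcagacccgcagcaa
Vegfa, chr9:22452604-22452853, plus strand: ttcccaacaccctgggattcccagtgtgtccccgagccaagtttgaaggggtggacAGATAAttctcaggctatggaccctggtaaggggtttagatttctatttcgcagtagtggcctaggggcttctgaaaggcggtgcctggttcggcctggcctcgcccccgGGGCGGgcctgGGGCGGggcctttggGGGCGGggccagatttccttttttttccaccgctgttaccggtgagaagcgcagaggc

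The letters GGGCGG were found in 8 of the 9 entries, against 30.5% of 33469 entries of the same length, and in the receptors as well as in the ligands. The 9 entries were 56% to 76% G or C, and the share over all entries was not matched for this. GCGTG was found in 4 of 9 (Vegfb, Pgf, Kdr and Flt1), against 25.9% of all entries, and ACGTG in 0 of 9, against 16.6%. CCGGAA was found in Kdr alone, against 12.6%, AGATAA in Vegfa alone, against 10.3%, and CAGGAA in 0 of 9, against 24.7%. A match describes the letters of this window only and does not show that a factor binds there. The lack of a match says nothing of bases outside the 250 searched.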

How the data were processed

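RNA was measured on 6 Affymetrix Rat 230 2.0 arrays, with about 3 µg of total RNA per array and biotin-labelled cRNA, per the labels' protocols. The authors deposited linear intensities (1 value for each probe set on each array), scaled so that the mean after trimming 2% at each end is 1000.3 to 1000.4 on each array. The software behind them is not stated in these sources, and detection calls were not used. As a guide to background, the highest value of the 3 probe sets of a bacterial control (TrpnX), taken as negative controls because they read 1.55 to 78.4, was used.

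The 57 control probe sets were left out. Symbols came from the platform annotation of 2016, and 10 of 10 genes matched the RefSeq table by gene identifier. A gene with several probe sets is represented by the one with the highest mean log2 value. log2(intensity + 16), which understates differences of dim signals, was fitted with limma 3.58.1 in R 4.3.3 (lmFit, eBayes, 6 arrays, no covariate, no filter) and p-values were adjusted by Benjamini-Hochberg over 31042 probe sets. Array number limits the precision.

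The 10 genes, the lists, and the ligand-receptor pairs were chosen with earlier results of these data known. From each list, up to 2 genes with the largest difference past the threshold were named, and the 3 nearest genes for Kdr and Vegfa. Hif1a, Angpt1 and other list members were named after their values were seen. Alternatives were other pseudocounts (1 and 64), median centring, quantile normalization, a filter on dim probe sets (mean log2 under 7), an intensity trend, a replicate block, leaving out each array, and averaging the probe sets of a gene. For the ligand-receptor pairs, other probe sets and leaving out each array were added after seeing the data.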

Additional observations from a re-analysis of the deposited data

How the results depend on the processing

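Vegfc, Angpt2, Flt1, Tek and Tie1 were lower in IMCD and past the threshold under all 14 alternatives tried. The number of the 10 genes called lower was 7 as reported and 6 to 8 over the alternatives, and 6 to 7 when 1 array was left out, with 0 called higher throughout. The balance over all probe sets moved with the scaling: 2663 higher and 4163 lower as deposited, 5389 higher and 2652 lower under median centring (67.0% of calls higher, against 39.0%), and 3438 and 3171 after quantile normalization (52.0%). Over all probe sets the median difference was -0.10, 0.19 and 0.06 in these 3 settings. Leaving out 1 array gave 1537 to 2248 higher and 2647 to 3221 lower probe sets. Without IMCD replicates 1, 2 and 3 it was 1537, 1717 and 1725 higher, and without nonIMCD replicate 1 it was 1666 higher and 2647 lower. The cause was not tested beyond the smaller number of arrays. The signs that turned were those of Vegfa 1373807_at (0.081 under median centring, 0.087 as the mean of both probe sets), Vegfb (0.19 under median centring, 0.18 after quantile normalization, 0.27 without IMCD replicate 1, 0.003 without nonIMCD replicate 2 and 0.10 without nonIMCD replicate 3, with a range of -0.393 to 0.267 over the left-out arrays) and the dim Kdr 1397868_at (0.44 without nonIMCD replicate 2, with a range of -0.982 to 0.436 over the left-out arrays), and 0 of these values had passed the threshold. The gap of Pgf to Flt1 also turned, to -0.307 with Flt1 1369087_at. Arrays with the same title number deviated together only weakly (r = 0.0401, 0.035 and 0.0605 over all probe sets), although each array correlated best with its own number. Such values cannot exclude pairs, and as the labels name none, the main fit used none. With the replicate block the SE moved both ways, to 0.123 from 0.409 for Vegfb and to 0.123 from 0.118 for Kdr 1367948_a_at. Vegfb still did not pass (limma, adjusted p = 0.627). With the replicate block, 6 of the 10 genes were lower, Pgf having lost its call (-1.12, adjusted p = 0.0534), and 1831 and 2993 probe sets were higher and lower. Signal over background limits Flt4 and the second Kdr probe set.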
